A study of Triticum aestivum and Triticum urartu and Aegilops speltoides with 12 samples.

Results

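Rye seedlings were compared with seedlings of hexaploid wheat on 4 of the study's 12 single-colour NimbleGen arrays, 2 for each plant. The arrays were chosen by their titles, and each measured feature was then sorted by the species named at the start of its identifier. The rye was labelled diploid rye (Secale cereale) and the wheat hexaploid wheat (Triticum aestivum), with no cultivar given in the sources used here. All seedlings were untreated, grew with 14 h of light a day at 23 °C by day and 20 °C by night, and were harvested whole, leaf and root together, after 10 days at the third leaf stage. Each array held total RNA pooled from 2 seedlings, and the labels call the arrays of a plant biological replicates, so the spread below is that between pools. The other 8 arrays held the 2BS.2RL wheat-rye translocation, a hexaploid line, and the diploids Triticum urartu, Aegilops speltoides and Aegilops tauschii, labelled as A, B and D genome progenitors of wheat, with 2 arrays each. They appear below only where they show where rye or wheat stands.

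Of the 56855 features, 5731 came from rye sequences, 42683 from bread wheat, 5724 from Triticum monococcum (einkorn, an A genome species), 2489 from Ae. speltoides, 114 from Ae. tauschii and 114 from Ae. squarrosa, an older name of Ae. tauschii. The prefix of the identifier was read as the source species. Every feature was read by 2 probes except 12 bread wheat features, which had 1. The files pair no feature with a gene name, so neither the function of a transcript nor a marker of leaf or root could be checked, and only 4 features are named.

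Rye and wheat belong to the same tribe of grasses. Rye carries the R genome, and bread wheat carries the A, B and D genomes of 3 different ancestors, so that a wheat gene usually has a near-identical copy on each of them. A probe made from the sequence of 1 species binds the matching transcript of another species less strongly where the sequences differ. A difference between rye and wheat on these arrays therefore holds both the amount of transcript and the match of the probe, and the 2 cannot be told apart here.

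The 2 rye arrays differed from each other more than the 2 wheat arrays did. Their levels correlated across features at r = 0.975, against 0.990 in wheat, and the median difference between replicates was 0.27 (log2) in rye and 0.16 in wheat. A difference of at least 1 log2 between replicates was found for 4.95% of features in rye and 1.54% in wheat. The random control feature, which summarises 6570 probes and is read here as background, measured 162 and 178 in intensity on the rye arrays against 94.2 and 90.3 on the wheat arrays, 0.88 higher in rye on the log2 scale. On the other 8 arrays it lay between 88.4 and 158. One plant outside the comparison stood apart. The 2 Ae. speltoides arrays differed from each other by at least 1 log2 for 6.07% of features, the highest share of the 6 plants. Their median difference, 0.21, lay below that of rye. At least 2 log2 lower were 736 features on replicate 2 and 127 on replicate 1. The 736 had medians of 8.14 on replicate 2, 11.59 on replicate 1 and 11.30 and 11.19 in wheat, so replicate 2 is treated as the array apart. In the rye against wheat contrast replicate 2 entered only the estimate of the spread, and counts without it are given below. It also entered the classes of features by level, and the levels, background shares and contrasts of Ae. speltoides.

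Rye and wheat differed in many features, and on the deposited scale the lower features differed by more than the higher ones. The call asked for a difference of at least 1 log2, which is 2-fold, and for a limma p, adjusted by Benjamini-Hochberg, under 0.05. Of 56855 features, 6312 were higher in rye (11.1%) and 7913 lower (13.9%). Without Ae. speltoides replicate 2 these were 6348 (11.2%) and 8101 (14.2%). The median called difference was 1.34 for higher and -2.07 for lower features. Many of these are bounds, because the plant with the lower level lay at or below the random control on both arrays in 1186 of the higher features (18.8%) and 2348 of the lower ones (29.7%). With that level set to the random control, the medians were 1.27 and -1.76. In some called features the plant with the higher level lay at background too. Rye was at or below its own random control on both arrays in 564 of the higher features (8.94%), 491 of them bread wheat-derived. Wheat was so in 81 of the lower ones (1.02%). These calls show no signal above background in the plant with the higher level. At least 2 log2 separated the plants in 1240 of the higher features (19.6%) and in 4123 of the lower ones (52.1%), and with the levels at the bound in 1097 (17.4%) and 3252 (41.1%). At 4 log2 or more, 213 were higher and 898 lower as measured, and 150 and 378 at the bound.

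Among called features from rye sequences, most were higher in rye. Of 5731, 1649 were called higher and 99 lower, or 28.8% and 1.73%, beside 11.1% and 13.9% of all features. Their median difference was 0.57, with quartiles of 0.24 and 1.15, against 0.19 for all features (quartiles -0.38 and 0.65), and 89.0% of them lay above 0 against 60.6% of all. These medians turned to -0.31 and -0.69 when the arrays were scaled to the random control, a shift that leaves the distance between them unchanged. The higher ones had a median difference of 1.73, or 1.62 with wheat levels below the random control set to it. As measured, 685 of them reached 2 log2, 338 reached 3, 191 reached 4 and 50 reached 6. At the bound, 635 reached 2 log2, 135 reached 4 and 13 reached 6, and these 13 were all of the features on the array that did so.

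**Figure D1:**
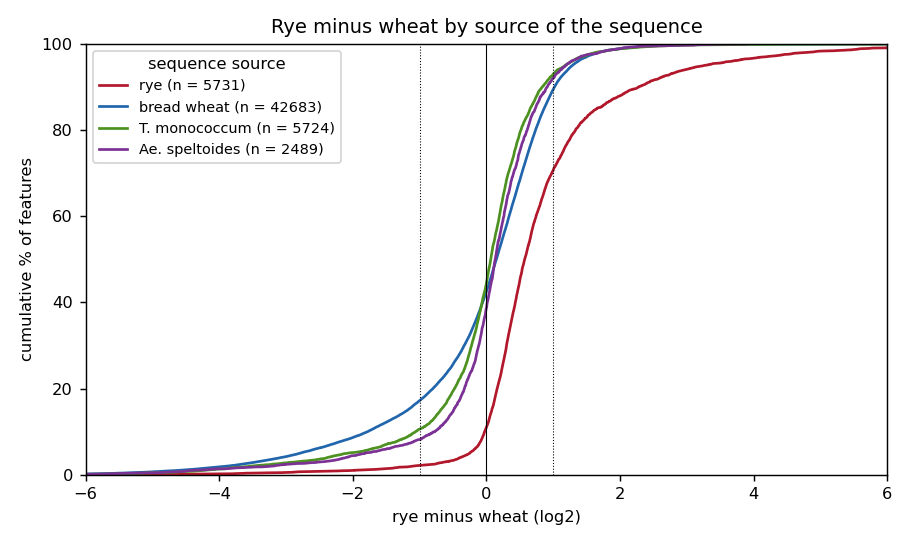
Cumulative share of features (%, vertical axis) at or below a given rye minus wheat difference (log2 of group means, n = 2 arrays each, horizontal axis) for 4 sources of sequence. Dotted lines mark a difference of 1 log2. The curve of the rye-derived features lies to the right of the others over most of its range, with a median of 0.57, and the bread wheat curve has the longest lower tail.

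The strongest of these was Scereale_ESTC003820. It read 13.46 and 13.29 (log2) on the rye arrays and 4.15 and 4.41 on the wheat arrays. The other 8 arrays lay between 4.15 and 5.56, so the feature was high in rye and at or near background in every other plant. The wheat values lay below the random control, and the feature was thus at least 115-fold higher in rye on the deposited scale (adjusted p = 8.36e-08, limma). The random control was 0.88 higher in rye, so scaling to it would lower this bound.

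The gap between rye-derived and bread wheat-derived features shows the same shift on single arrays, and it does not move when a whole array is scaled up or down. The median of the rye-derived features was 12.20 and 12.18 on the rye arrays and 11.47 and 11.47 on the wheat arrays. The bread wheat-derived median was 10.11 and 10.13 in rye against 10.28 and 10.28 in wheat. The rye-derived median thus exceeded the bread wheat-derived one by 2.09 and 2.05 in rye and by 1.20 and 1.19 in wheat. On the other 8 arrays this gap ran from 1.14, in the translocation line, to 1.38, in Ae. speltoides, so the 2 rye arrays lay above all the others.

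**Figure D2:**
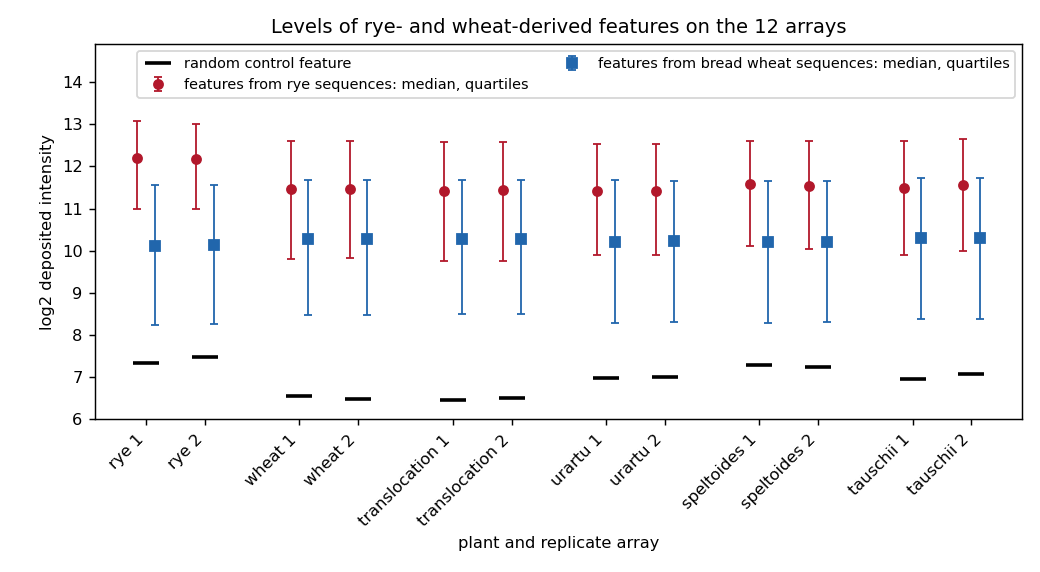
Level (log2 deposited intensity, vertical axis) of rye-derived and bread wheat-derived features on each of the 12 arrays (horizontal axis, plant and replicate). Points are medians over features, bars run between quartiles, and black dashes are the random control. Rye-derived features stand at 12.20 and 12.18 in rye and between 11.42 and 11.58 elsewhere, and the random control is highest in rye.

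Most rye-derived features did not meet the call in either direction. These 3983 features were bright in both plants, with median levels of 12.47 in rye and 12.07 in wheat, and a median difference of 0.38. Of all rye-derived features, 88.5% were clear of background in both plants, meaning at least 1 log2 above the array's random control on both arrays. Wheat RNA therefore gave a clear signal on most probes made from rye sequences. Such a share was not particular to rye-derived features. Clear in both plants were 74.5% of all features and 69.8% of bread wheat-derived ones, but 88.5% of those from Ae. speltoides and 89.6% of those from T. monococcum.

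The 99 rye-derived features that were lower in rye went against the direction of the group. Their median difference was -2.11 and 52 of them differed by at least 2 log2. Scereale_ESTC001408 had the largest difference, with 5.22 and 4.94 in rye, both at background, against 11.27 and 11.81 in wheat. It was at least 17.6-fold lower in rye on the deposited scale (adjusted p = 0.00726, limma). It read between 11.52 and 12.02 on the T. urartu, Ae. tauschii and translocation arrays, and 12.17 and 5.85 on the 2 Ae. speltoides arrays. The latter plant thus had 1 array like wheat and 1 like rye, which widened the feature's spread in the fit. Without Ae. speltoides replicate 2 its adjusted p was 3.83e-07. When 1 rye or wheat array was left out, the count of 99 was the one among the rye against wheat counts by source that moved by over 1.5 times: it was 54 without wheat replicate 1, 63 without wheat replicate 2, 65 without rye replicate 2 and 72 without rye replicate 1, where the lone array is assumed to vary like the other groups. Without Ae. speltoides replicate 2 it was 118, and 98 of the 99 were among them.

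Features from bread wheat sequences were more often called lower than higher in rye, but this depended on the threshold of 1 log2. With no fold threshold 10979 were higher and 9831 lower. Their median difference was 0.15, and 57.5% of them lay above 0. With the threshold, 7009 of 42683 were lower (16.4%, beside 13.9% of all features) and 4081 higher (9.56%, beside 11.1%). The lower ones had a median difference of -2.07, or -1.76 at the bound, with a median level of 8.23 in rye and 10.69 in wheat. The higher ones had a median difference of 1.28, or 1.19 at the bound, at 9.40 in rye and 7.96 in wheat. At 2 log2 or more, 3658 were lower and 462 higher, and at 4 log2 or more 774 were lower and 17 higher. At the bound these were 2850 and 378, and 304 and 13. Bread wheat-derived features made up 64.7% of the features called higher and 88.6% of those called lower, against 75.1% of all features.

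Taestivum_ESTC033205 had the largest difference of the lower features. It read 4.15 and 3.71 in rye, at background, and 11.47 and 11.59 in wheat. It was at least 17.4-fold lower in rye on the deposited scale (adjusted p = 9.34e-08, limma). On the other 8 arrays it lay between 10.89 and 12.23, so that rye alone was low. Taestivum_ESTC021091 had the largest difference of the higher ones, with 10.75 and 10.67 in rye against 4.66 and 4.59 in wheat, at background. It was at least 18.2-fold higher in rye on the deposited scale (adjusted p = 2.58e-07, limma). It was also raised in T. urartu, at 8.18 and 7.81, and lay between 4.53 and 5.59 on the other 6 arrays.

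Among features from the wheat relatives, the shares called in either direction lay below those of all features for einkorn and Ae. speltoides. Of the 5724 T. monococcum features, 382 were higher in rye and 582 lower (6.67% and 10.2%, beside 11.1% and 13.9% of all features), with a median difference of 0.06. Of the 2489 Ae. speltoides features, 187 were higher and 187 lower (7.51% each), with a median of 0.13. Their lower calls were again the larger ones: 105 of the 187 lower features and 28 of the 187 higher ones reached 2 log2. In the small sets from Ae. tauschii and Ae. squarrosa, 6 and 7 features were higher (5.26% and 6.14%) and 18 and 18 lower (15.8% each, near the 13.9% of all features).

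In some features the signal was clear in 1 plant and absent in the other. Clear in rye and at or below the random control on both wheat arrays were 131 rye-derived, 24 bread wheat-derived and 8 other features, 163 in all. These were 2.29% of rye-derived, 0.0562% of bread wheat-derived and 0.287% of all features. Clear in wheat and at background in rye were 9 rye-derived, 1870 bread wheat-derived and 150 other features, 2029 in all. Here the shares were 0.157%, 4.38% and 3.57%, so the bread wheat-derived share lay near that of all features. The random control was itself higher in rye, which raises the second count and lowers the first. With the highest random control of the 4 arrays as the background of both plants, 437 features were clear in rye alone (235 rye-derived, 172 bread wheat-derived and 30 others) and 1515 in wheat alone (11, 1387 and 117). With the lowest, these were 311 (151, 143 and 17) and 1036 (4, 955 and 77). Under each of the 3 backgrounds, rye-derived features were more numerous in the first set than in the second. Bread wheat-derived features were more numerous in the second, as were all features together.

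The higher calls in rye were concentrated among features that were dim in the other plants. Features were ranked by their mean level on the 8 arrays of the other plants and split into 4 equal classes. These arrays entered the contrast only through the estimate of the spread. None of them held rye, and the 2 translocation arrays correlated with the wheat arrays at r = 0.979 to 0.986. A feature raised in rye alone is thus placed in a dimmer class by the ranking itself. Of all features, 22.9% of the dimmest class and 1.08% of the brightest were higher in rye, and 16.5% and 8.14% were lower. Among bread wheat-derived features, 19.3% of the dimmest class and 0.457% of the brightest were higher in rye, and the median difference went from 0.52 to -0.10. Lower calls changed less, from 17.7% of the dimmest to 11.2% of the brightest class. Among rye-derived features, 72.1% of the dimmest and 4.45% of the brightest class were higher, with medians of 2.04 and 0.27. In each class the rye-derived median exceeded that of bread wheat-derived features, by the least in the brightest. The random control, 0.88 higher in rye, and the 0.52 of dim bread wheat-derived features moved the same way. Their part in the higher calls was not tested.

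**Figure D3:**
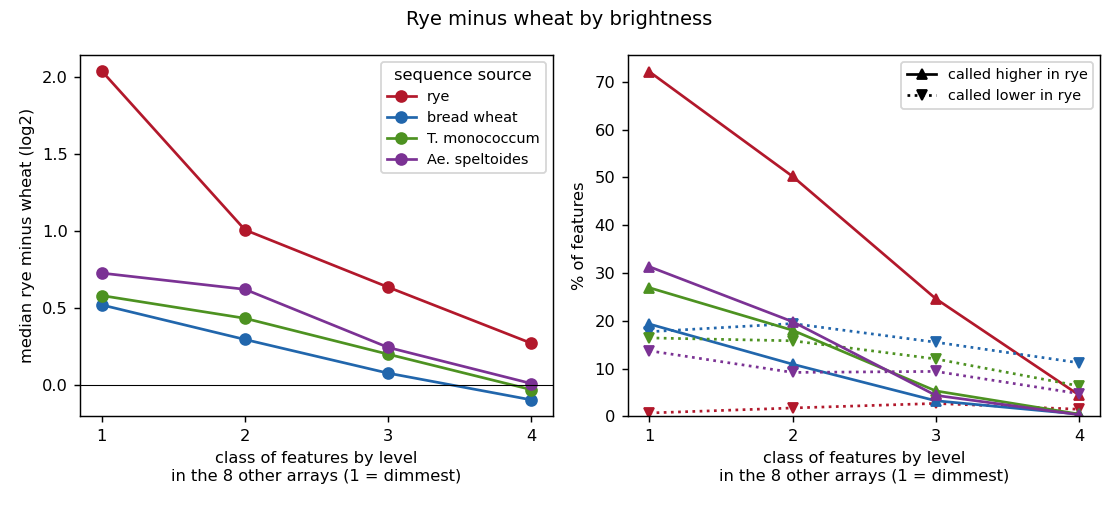
Median rye minus wheat difference (log2, left) and share of features called higher or lower in rye (%, right) in each of 4 equal classes of features by their level on the 8 arrays of the other plants. In the dimmest class the medians are 2.04 for rye-derived and 0.52 for bread wheat-derived features, and in the brightest 0.27 and -0.10.

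The counts of higher and of lower calls both depended on how the arrays were scaled. Cyclic loess left 1294 rye-derived features higher and 116 lower, and 1322 bread wheat-derived features higher and 8358 lower. Of all features it called 5.12% higher and 16.5% lower. When each array was shifted to equalise the random control, 719 rye-derived features were higher and 373 lower, and 493 bread wheat-derived features were higher and 15524 lower, with 2.32% of all features higher and 33.0% lower. The median of all features moved from 0.19 to 0.04 and -0.69 under these scalings. Rye-derived features lay above that median by 0.38 as deposited and 0.43 with cyclic loess. The shift cannot change this distance, which stayed at 0.38. Bread wheat-derived features had a median of 0.15 on the deposited scale, -0.05 after cyclic loess and -0.73 after the shift. Median scaling gave 1698 and 95 rye-derived and 4431 and 6860 bread wheat-derived features, with 11.9% of all features higher and 13.6% lower. Higher features made up 44.4% of all calls on the deposited scale, 23.7% after cyclic loess, 6.56% after the shift and 46.6% after median scaling. The shift lowers every difference by the same amount, so it can only remove higher calls and add lower ones. With that limit, 20.9% of the higher calls on the deposited scale (1318) and 97.7% of the lower ones (7732) held under all 4 scalings. Of the higher calls, 43.6% of the rye-derived and 12.1% of the bread wheat-derived ones held. After cyclic loess, 1292 of the 1649 rye-derived and 1322 of the 4081 bread wheat-derived higher calls were called again, and 98 of the 99 and 6987 of the 7009 lower ones.

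**Figure D4:**
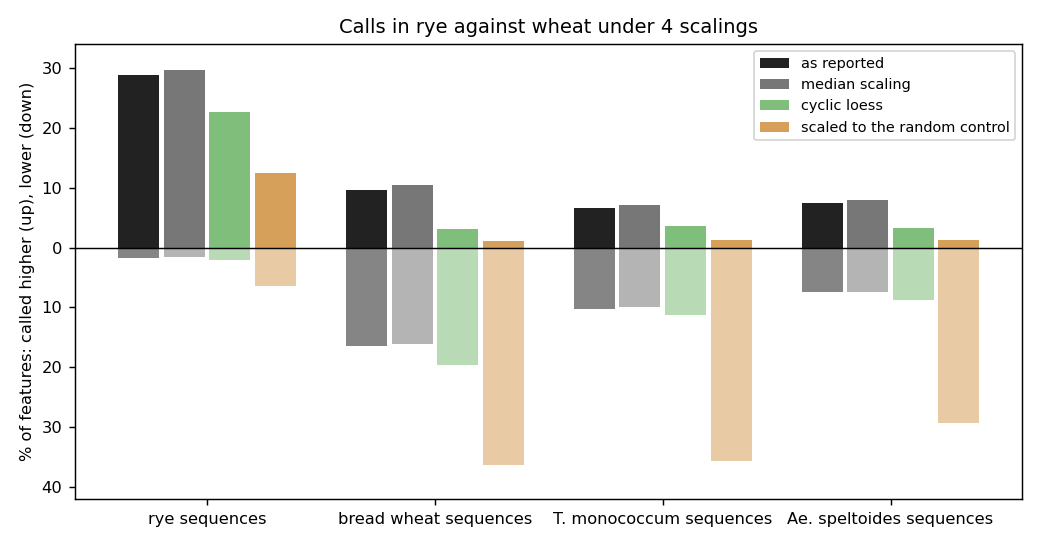
Share of features (%, vertical axis) called higher in rye (upward bars) and lower (downward, paler bars) by source of sequence, under the deposited scale and 3 other scalings. Higher calls of rye-derived features go from 28.8% as deposited to 12.5% after scaling to the random control, and those of bread wheat-derived features from 9.56% to 1.16%.

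On the arrays of the other plants, the called features were not all placed alike. The values on the rye and wheat arrays chose these sets and are given only as a description. The 1649 rye-derived features higher in rye had medians of 11.66 and 11.46 on the rye arrays and 9.34 and 9.37 on the wheat arrays. Their medians on the other 8 arrays lay between 9.24 and 9.87, close to wheat. The 7009 bread wheat-derived features lower in rye had medians of 8.21 and 8.25 in rye and 10.70 and 10.69 in wheat. The translocation line matched wheat, at 10.71 and 10.69, while the diploids lay between, at 9.91 and 9.90 in T. urartu, 9.41 and 9.23 in Ae. speltoides and 10.17 and 10.07 in Ae. tauschii. In rye 30.7% of this set was at background, in Ae. speltoides 20.7%, in T. urartu 15.9%, in Ae. tauschii 15.1%, in the translocation line 1.36% and in wheat 1.06%. Of all features these shares were 11.8%, 11.4%, 9.79%, 9.87%, 6.96% and 7.36%. Each plant was set against its own random control, which ran in nearly the same order: 162 and 178 in rye, 158 and 152 in Ae. speltoides, 126 and 129 in T. urartu, 124 and 134 in Ae. tauschii, 88.4 and 90.6 in the translocation line and 94.2 and 90.3 in wheat. Its part in these shares was not tested. Of the set, 3475 features (49.6%) were clear of background in all 3 diploid relatives and 992 (14.2%) in none of them. Among the 31593 bread wheat-derived features not called, these shares were 74.7% and 15.4%. Among the 4081 called higher they were 45.1% and 35.5%. The share clear in none was thus not raised in the set.

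Rye was also set beside each of the other plants, with the rye arrays shared by all these comparisons. Rye-derived features were higher in rye in 1694 cases and lower in 92 when set beside the translocation line, 1600 and 110 beside T. urartu, 1326 and 52 beside Ae. speltoides, and 1453 and 112 beside Ae. tauschii. The shares of all features called higher in these were 11.9%, 10.6%, 8.70% and 9.44%, and of those called lower 14.3%, 12.6%, 9.47% and 12.4%. The counts beside Ae. speltoides moved without its replicate 2, to 1400 higher and 151 lower, beside 9.67% and 10.7% of all features, where the remaining array borrows its spread from the other plants. Ae. speltoides features, 187 higher and 187 lower in rye than in wheat, were 58 and 278 beside Ae. speltoides, and 72 and 354 without its replicate 2. T. monococcum features were 223 and 917 beside T. urartu and 426 and 425 beside Ae. speltoides, or 483 and 519 without that array. With rye left out and wheat as the shared plant, rye-derived features were higher in 216 cases and lower in 312 in T. urartu, 369 and 256 in Ae. speltoides, and 192 and 261 in Ae. tauschii, beside 6.62%, 7.16% and 5.71% of all features higher and 9.43%, 10.7% and 8.73% lower. Without Ae. speltoides replicate 2, the counts in that plant were 364 and 279, beside 7.29% and 11.1% of all features. In the translocation line 7 were higher than in wheat and 50 lower, beside 0.331% and 0.311% of all features.

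The Ae. speltoides array that stood apart shared its low features with rye. This pattern was found after its values were seen. On Ae. speltoides replicate 2, 736 features were at least 2 log2 lower than on replicate 1. Their median level was 8.14 on that array, 8.39 and 8.31 on the rye arrays and between 11.19 and 11.59 on the other 9. Of the 736, 491 were called lower in rye than in wheat (66.7%, beside 13.9% of all features) and 5 higher, with a median difference of -2.55. By source, 61.1% of the rye-derived and 65.8% of the bread wheat-derived features among the 736 were lower in rye. Features at least 2 log2 apart between replicates in the other direction in Ae. speltoides, or in either direction in T. urartu, Ae. tauschii and the translocation line, numbered 28 to 158 for each array, and 0.00% to 24.4% of them were lower in rye. These sets were dimmer, with medians of 5.60 to 8.03 on the wheat arrays against 11.30 and 11.19 for the 736. They thus had less room to be called lower in rye. Of the 99 rye-derived features lower in rye, 55 (55.6%) belonged to the 736, against 321 (4.58%) of the 7009 bread wheat-derived ones. The share was 6.20% for all 7913 lower features, 26.2% for the 187 from Ae. speltoides and 11.0% for the 582 from T. monococcum. The median of the 99 was accordingly 11.88 on Ae. speltoides replicate 1 and 9.08 on replicate 2, with 9.22 and 9.17 in rye and 12.02 and 11.96 in wheat. What these features encode is not given in the files.

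**Figure D5:**
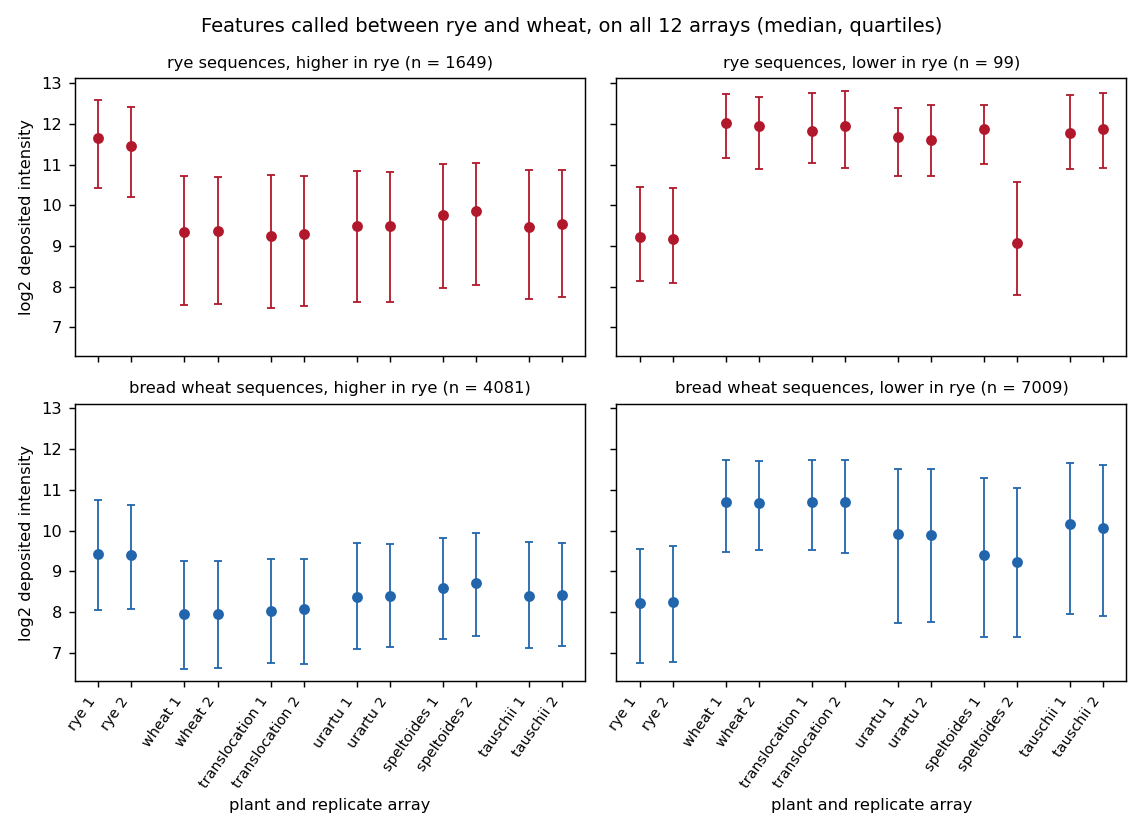
Level (log2 deposited intensity, vertical axis) on each of the 12 arrays (horizontal axis) of the rye-derived and bread wheat-derived features called higher or lower in rye than in wheat. Points are medians and bars quartiles over the features; rye and wheat values chose the sets. In the set of 99 rye-derived features lower in rye, Ae. speltoides replicate 2 lies at 9.08, near the rye arrays, and the other 9 arrays outside rye lie between 11.59 and 12.02.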

How the data were processed

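The intensity of each feature on each array was taken from the authors' deposited table, on a linear scale; the submitters' processing notes name RMA, without its version or steps. RMA-type normalization brings arrays to nearly the same distribution, so a change in total transcript cannot be seen. The 12 intensity columns of the raw probe table carry codes that match no label and were not used; only its feature identifiers were, to count probes. The 8 control features were left out of the tests, and 0 identifiers matched the gene table.

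Log2 of the deposited intensities, with no offset, entered a limma (version 3.58.1, under R 4.3.3) model of group means on the 12 arrays (6 residual and 2.97 prior degrees of freedom). P-values were adjusted over 56855 features, without a filter on dim ones. The procedure was tested on simulated data. Members, classes and alternatives were chosen with earlier results of these data known. Where the lower plant lay at or below its random control, the fold is a bound: the higher plant's mean against the lower plant's control. It holds for the deposited scale and changes with the scaling of the arrays. Named features are, within rye-derived and within bread wheat-derived ones, the called feature furthest apart in each direction, provided that no rye array overlapped a wheat array. The number of arrays limits the precision. Slide was not tested as a batch, because no source used here ties an array to a slide.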

Additional observations from a re-analysis of the deposited data

Results flagged for a closer look

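The control features for sGFP took no part in the comparison, and 4 of the 7 read brighter than the random control on each rye and wheat array. They were higher in rye than in wheat by 0.44, 0.87, 0.97 and 0.76 (log2), with the random control higher by 0.88. The purpose of the sGFP probes is not stated in the labels.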

How the results depend on the processing

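Each value is the count of features higher, then lower, in rye, for all, rye-derived, bread wheat-derived and other features in turn. With cyclic loess 2912, 1322 and 296 were higher among all, bread wheat-derived and other features. Scaled to the random control, they were 1318 and 18761, 719 and 373, 493 and 15524, and 106 and 2864, as a uniform shift moves features over the threshold. Without the dimmest 25%, 3235, 1754 and 371 were higher among all, bread wheat-derived and other features. A difference of at least 2 log2 left, by construction, 1240 and 4123, 685 and 52, 462 and 3658, and 93 and 413. With no fold threshold 15828 and 11443, 3078 and 143, 10979 and 9831, and 1771 and 1469 were higher and lower. Higher calls then outnumbered lower ones among all, bread wheat-derived and other features, which they did not with the threshold.

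Leaving out each rye or wheat array gave 5697 to 6784 higher and 7158 to 7645 lower features, 1582 to 1739 and 54 to 72 rye-derived, 3558 to 4549 and 6381 to 6819 bread wheat-derived, and 555 to 653 and 687 to 754 other ones. Without Ae. speltoides replicate 2, also chosen after seeing the data, 118 rye-derived features were lower. With a common background, chosen after seeing the data, features clear in rye alone were 437 at the highest and 311 at the lowest random control, with 235 rye-derived at the highest, 172 and 143 bread wheat-derived, and 30 and 17 others. At the lowest, 1036, 4, 955 and 77 were clear in wheat alone.

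The labels do not pair arrays by replicate number, and deviations of same-numbered rye and wheat arrays correlated at 0.05. With the replicate block 6336 features were higher and 7938 lower, and the block changed no call of a named feature. Median scaling, an intensity trend in the prior and a fit of the rye and wheat arrays alone kept every count within 1.5 times, and the named features kept their direction and call under every alternative that tested them. Raw probe values and slide as a block were not run, because the columns match no label and the slide is not given.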
